A study of Mus musculus with 44 samples.

Results

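C2C12 is a line of mouse myoblasts, which leave the cell cycle and form multinucleate myotubes once serum is withdrawn. Some of its RNAs were seen on every array of input RNA and on few or none of the arrays of RNA recovered by immunoprecipitation. A probe belonged to this set if its detection p-value was under 0.05 on all 15 input arrays and was 0.05 or more on at least 22 of the 29 pulldown arrays, so that at most 7 pulldown arrays detected it. A detection p-value compares a probe with the negative-control probes of its own array, and a probe under 0.05 is called detected here. The rule found 373 of 25697 probes, and these 373 were among 9122 probes detected on every input array. The members were chosen by the detection p-values of all 44 arrays, so the low pulldown levels and the presence in input are given as a description with no test. The input time course was not used by the rule beyond the demand for detection on every day.

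The cells were C2C12 throughout, with no genotype that differed between groups. Pulldown from lysate was made with an antibody against AUF1 on days 0 (4 arrays), 2 (3), 4 (3) and 6 (4) and with control IgG on days 0 (4), 2 (3), 4 (4) and 6 (4). Input RNA, taken without pulldown, was measured on days 0, 3 and 6 with 5 arrays each. Each input day holds 4 experiment numbers, 1 of them on a pair of arrays (33 and 36 on day 0, 37 and 40 on day 3, 41 and 44 on day 6), so n = 5 counts arrays. Day 0 cells were growing in serum-rich medium and cells of later days were in a low-serum medium that induces differentiation. Input titles name DNA but the descriptions name RNA, and the samples were taken to be RNA. No source says that arrays of a group came from separate cultures, so the p-values measure the spread between these arrays, which may be technical. All of these groups rest on 1 cell line.

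AUF1, encoded by Hnrnpd, attaches to AU-rich stretches of many mRNAs and affects how fast they decay and how well they are translated. In RNA immunoprecipitation the RNA that stays with the antibody-coated beads is purified and measured, and a control IgG shows what beads and antibody retain without the target protein. The retained RNA is only a part of the cell's RNA and, like the input RNA here, it was amplified from an oligo-dT primer before labelling. The probes carry Illumina identifiers alone, and the sources used here do not pair them with genes, so members are named by identifier, without gene, position or sequence, and the cell type markers of the line were not analysed here.

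The arrays themselves differed in how much they detected. Input arrays detected 44.7% to 48.7% of all probes and pulldown arrays 24.4% to 46.8%, with 5 pulldown arrays under 30%. Pulldown arrays carry the numbers 1 to 32 and input arrays 33 to 47 in the deposited table. Pulldown and input are thus separate series of arrays, and a difference between them cannot be told apart from a difference between the series. The pulldown arrays come from 4 numbered experiments, and the 8 arrays of experiment 4 gave most detections of members.

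The members were mostly dim in input. Their mean input level, on the log2 scale after background correction and quantile normalization, ran from 4.91 to 8.731 with a median of 6.06 and an interquartile range of 5.61 to 6.54. The other 8749 probes detected on every input array had a median of 7.64, an interquartile range of 6.48 to 9.01 and a highest level of 14.5. In unnormalized signal, the members' median on an input array lay between 74.8 and 139, and on a pulldown array between 48.7 and 87.8. With the 9122 probes ordered by input level and cut into 10 bins of near equal size, the share of members fell from bin to bin. It was 12.6% (115 probes) in the lowest bin, 10.2% (93) in the next and 8.99% (82) in the bin after that. It was then 4.17% (38), 2.85% (26), 1.1% (10), 0.877% (8) and 0.11% (1), with 0 members in bins 9 and 10, the brightest. Detection on pulldown arrays moved the same way over all 9122 probes, from a median of 20 of 29 arrays in the lowest bin to 29 of 29 from bin 7 on. Input level and absence from the pulldowns therefore went together, and the part of level in membership was not tested.

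The threshold of 7 pulldown arrays lay on a continuous distribution. Of the 373 members, 38 were detected on no pulldown array, 44 on 1, 55 on 2, 56 on 3, 44 on 4, 53 on 5, 41 on 6 and 42 on 7. Just outside, 50 probes were detected on 8 arrays, 59 on 9 and 65 on 10, while 4128 were detected on all 29. The brightest member just inside was ILMN_2957614, seen on 7 pulldown arrays, with mean input levels of 9.29 ± 0.62 on day 0 and 7.61 ± 0.39 (SD, n = 5) on day 6 and pulldown signals of at most 167.0. The brightest probe just outside was ILMN_3137570, seen on 8, with mean input levels of 6.97 ± 0.38 on day 0 and 9.66 ± 0.19 (SD, n = 5) on day 6 and pulldown signals of at most 97.8. ILMN_2771219, also seen on 8 pulldown arrays, had input signals of 423.8 to 889.5 on day 6.

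ILMN_3149251 was the member with the highest mean input level, 8.731. Its input signals were 561.8, 568.7, 353.5, 861.9 and 346.2 on day 0. On day 3 they were 428.4, 394.0, 590.9, 547.0 and 312.1. On day 6 they were 374.2, 379.2, 878.7, 309.6 and 335.5. The 3 days overlapped, and its changes from day 0, -0.03 ± 0.22 (SE) on day 3 and -0.15 ± 0.22 on day 6 (log2), did not pass the test (limma, adjusted p = 0.932 and 0.624). On the 14 AUF1 arrays the signal was 44.9 to 78.0 and only the day 6 array of experiment 4, at 72.3, was called detected. On IgG arrays it was 49.3 to 117.8, with detection on 5 of 15. The lowest input array, at 309.6, was above every pulldown array for this probe.

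ILMN_2647628 was the member with the next highest input level. Its input signals were 262.3, 455.7, 279.4, 926.3 and 154.2 on day 0, and they lay between 220.3 and 602.9 on day 3 and between 244.8 and 852.3 on day 6. The spread within a day was as wide as that between days, and the day 6 change of 0.61 ± 0.33 (SE, log2) did not pass the test (limma, adjusted p = 0.155). It was detected on 2 pulldown arrays, both of day 0 and experiment 4: the AUF1 array at 71.4 and the IgG array at 125.6. On the other 27 arrays it lay between 46 and 88.5. A signal of 88.5 on the IgG day 0 array of experiment 1 was not called detected while 71.4 on another array was, as detection is relative to the negative controls of each array.

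ILMN_2629591 was the brightest of the 38 members never detected in a pulldown. Its input signals were 240.7, 225.7, 235.7, 361.8 and 99.5 on day 0. They were 475.7, 397.2, 695.5, 329.5 and 327.4 on day 3, and 427.6, 540.5, 657.0, 330.6 and 372.9 on day 6. Day 0 stood lowest, with 1 day 0 array, at 361.8, inside the range of the later days. The level rose by 1.34 ± 0.23 (SE, log2, 2.54-fold) by day 3 and by 1.40 ± 0.23 (2.63-fold) by day 6 (limma, adjusted p = 0.000217 and 0.00012). On the 29 pulldown arrays the signal stayed between 38.4 and 65.6. The 4 AUF1 arrays of day 6 read 61.3, 52.7, 50.0 and 51.2 and the 4 of day 0 read 55.3, 49.5, 39.1 and 49. The rule chose it for readings not above background, so these show no course. On the lowest input array, number 45, it read 99.5, still above every pulldown array.

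Among the never-detected members, ILMN_2594521 changed most between input days of the 5 brightest. Its input signals were 125.3, 172.2, 140.6, 191.0 and 123.0 on day 0. They were 167.4, 141.3, 377.8, 257.8 and 219.3 on day 3 and 408.3, 367.1, 418.3, 363.2 and 322.3 on day 6. Every day 6 array was above every day 0 array, while day 3 overlapped both. The rise was 0.87 ± 0.24 (SE, log2) by day 3 and 1.75 ± 0.24 by day 6 (limma, adjusted p = 0.00833 and 1.59e-05). Its pulldown signals were 46.1 to 80.2. The highest of them was on an IgG array of day 0. The 4 AUF1 arrays of day 6 read 62.3, 51, 58.4 and 56.8, and those of day 0 read 54.0, 57.3, 47.6 and 60.7. These readings too were not above background and show no course. ILMN_1259424 rose by 1.04 by day 3 and 1.31 by day 6 (SE 0.27 each, limma, adjusted p = 0.00523 and 0.000732). ILMN_1218668, with day means of 7.57 ± 0.52, 7.98 ± 0.61 and 7.99 ± 0.49 (SD, n = 5), and ILMN_2647627, with 6.89 ± 0.68, 7.10 ± 0.79 and 7.21 ± 0.69, did not pass the test on either day.

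For a member that no pulldown array detected, the pulldown level has only an upper bound. All 44 arrays were therefore normalized together for description, and the mean input level was set against the mean over pulldown arrays of the probe's own value or the dimmest detected probe, whichever was higher. ILMN_2629591 was at least 6.29-fold higher in input than on AUF1 arrays and at least 8.54-fold higher than on IgG arrays, with measured means of 7.99, 4.33 and 4.31. The same bounds were 4.64 and 6.29 for ILMN_1218668 and 3.88 and 5.26 for ILMN_2594521. For the 38 members together, the bound against IgG was 1.01 to 8.54 with a median of 1.42. Against AUF1 it lay under 1 for 16 of the 38, and no fold is given for those. For most never-detected members the arrays could thus not show a large gap between input and pulldown at this signal. These bounds carry the difference between the 2 series of arrays.

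Most appearances of members in a pulldown were on IgG arrays. Over 14 AUF1 arrays there were 316 detections in 5222 pairs of member and array (6.05%), and over 15 IgG arrays 987 in 5595 (17.6%). By member, 198 were seen on arrays of both kinds, 129 on IgG arrays and on no AUF1 array, and 8 on AUF1 arrays and on no IgG array. A larger share of IgG than of AUF1 arrays detected 284 members, and the reverse held for 51. Of all probes, AUF1 arrays detected 35.2% ± 6.74 (SD, n = 14) and IgG arrays 41.6% ± 5.83 (SD, n = 15), and the part of that in these counts was not tested. The rule capped both kinds together, so these counts describe the members and are no test of AUF1 against IgG.

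The appearances were concentrated on a few arrays. The IgG day 0 array of experiment 4, number 25, detected 257 members, which is 68.9% of them and 24 of the 44 members seen on exactly 1 array. Without that array the IgG detections were 730, or 14%. The IgG arrays with the next highest counts were those of day 4 and day 6 of experiment 4, with 156 and 140, and of day 0 of experiment 1, with 113. Among AUF1 arrays, the day 6 and day 0 arrays of experiment 4 had 120 and 62 and the day 6 array of experiment 1 had 50. The other 11 AUF1 arrays had between 2 and 18: on day 0 17, 5 and 9, on day 2 2, 9 and 2, on day 4 7, 5 and 18, and on day 6 8 and 2. The remaining IgG arrays had 14 and 14 on day 0, 28, 27 and 12 on day 2, 47, 7 and 27 on day 4, and 77, 59 and 9 on day 6. Arrays of AUF1 and IgG overlapped in these counts on days 0, 4 and 6, and on day 2 every IgG array was above every AUF1 array. Array 25 detected 44.7% of all probes and 97.9% of the 9122 probes detected on every input array. Other IgG arrays with a like share of all probes had far fewer members, such as 47 at 44.6% (day 4, experiment 1) and 59 at 45.5% (day 6, experiment 2). On array 25 the members' median signal was 78.3 and the median of all probes 69.1.

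By experiment, AUF1 arrays gave 76, 22, 16 and 202 detections of members in experiments 1 to 4 and IgG arrays gave 265, 92, 50 and 580. Experiment 2 had 3 AUF1 and 4 IgG arrays, experiment 3 had 3 of each, and experiments 1 and 4 had 4 of each. IgG counts were above AUF1 counts in each of the 4 experiments. Without the 8 arrays of experiment 4, and with the same share of the remaining 21 arrays asked for (at least 16 undetected), the rule would name 542 probes, 371 of them members here.

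Through differentiation a smaller share of the members fell in input RNA than of all probes, and the shares that rose were nearer to each other. No test was made over the list. By day 3, 115 of the 373 differed from day 0 (30.8%, limma, adjusted p under 0.05 over all 13750 probes tested), against 37.4% of all probes tested. Of these 75 rose (20.1%, against 17.2% of all) and 40 fell (10.7%, against 20.3%). By day 6, 140 had changed (37.5%, against 42.4% of all), 97 of them up (26%, against 19.5%) and 43 down (11.5%, against 23%). The median change of the members was 0.134 by day 3 and 0.143 by day 6 (log2), and that of all probes was -0.0171 and -0.031. A change in bulk RNA can come from more RNA per cell or from more cells of a kind, and these cannot be told apart. The rule asks for detection on every input array, which sets a floor under the level that a member can fall to. It also asks for few detections on pulldown arrays of days 0 to 6, which may select by course. The part of the rule in these shares was not tested.

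With the arrays that share a day and an experiment number averaged first, 61 rose and 30 fell by day 3 and 89 and 30 by day 6. The shares of all probes in that setting are not given here, so these counts are not set against them. The split between rises and falls depended on the input arrays used. Without day 0 array 45, the members gave 58 rises and 58 falls by day 3 (15.5% each, against 18% and 22.4% of all probes) and 91 rises and 61 falls by day 6 (24.4% and 16.4%, against 20.2% and 24.9%). With median scaling in place of quantile normalization there were 37 rises (9.92%, against 10.8% of all probes) and 35 falls (9.38%, against 20.2%) by day 3. By day 6 these were 50 (13.4%, against 13.1%) and 35 (9.38%, against 22.5%). With arrays weighted by their quality there were 65 rises (17.4%, against 20.3%) and 71 falls (19%, against 24.7%) by day 3, so that falls outnumbered rises. By day 6 these were 107 (28.7%, against 23.2%) and 85 (22.8%, against 28.6%). The share of falls stayed under that of all probes in these 3 settings, while the share of rises by day 3 did not stay above it in any of them.

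On array 45 the members were low. Their median deviation from the day 0 mean was -0.31 (log2) there, and that of all 9122 always-detected probes was -0.06. For 194 members (52%) it was the lowest of the 5 day 0 arrays, against 37.3% of the always-detected probes. The other day 0 arrays had member medians of 0.10, 0.18, -0.18 and 0.15. On day 3 the member medians ran from -0.16 (array 46) to 0.20 (array 40) and on day 6 from -0.09 (array 47) to 0.18 (array 41). Over the 3 days all always-detected probes stayed within -0.06 and 0.03, so the members' median varied more between arrays of a day than that of these probes. Quantile normalization itself keeps the median of so broad a set nearly level, and other dim probes were not compared.

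Most members called on day 3 were also called on day 6. Of the members, 67 rose on both days, 30 rose by day 6 alone and 8 by day 3 alone. There were 32 that fell on both days, 11 by day 6 alone and 8 by day 3 alone. None went in opposite directions (0 of 373), and 217 passed the test on neither day. Both comparisons share the day 0 arrays, and the same overlap was not counted over all probes. It is therefore given as a count and not as a result about the members. Between day 3 and day 6 only 1 member passed the test, a rise (0.268%, against 0.422% of all probes), and 0 fell (against 0.0291%). In both directions together 0.451% of all probes passed. Of the members, 19 of 373 passed at an unadjusted p under 0.05. The count over all probes at that threshold is not given here, so nothing is read from it. Changes of at least 2-fold were seen in 27 rises (7.24%, against 7.11% of all probes) and 10 falls (2.68%, against 6.87%) by day 3. By day 6 there were 35 (9.38%, against 8.37%) and 14 (3.75%, against 8.33%).

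The rises and falls were also set out by input level. In bins 4 to 10 of input level, 31 of 83 members rose by day 6 (37.3%) and 1 fell (1.2%), while of 6302 other always-detected probes of the same bins 24.1% rose and 27.2% fell. In bins 1 to 3 22.8% of 290 members rose and 14.5% fell, against 12.1% and 24.6% of 2447 others. Without array 45 36.1% of the members in bins 4 to 10 rose and 8.43% fell, against 25.1% and 29.5% of the others. In bins 1 to 3 these were 21% and 18.6%, against 12.8% and 25%. The members' share of falls was thus under that of other probes of the same pooled bins with and without that array. Levels were not matched within the pooled bins. Of the 83 members in bins 4 to 10, 38 were in bin 4 and 26 in bin 5, while the other probes were spread over all of these bins.

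The largest rises were in ILMN_1217728, ILMN_2711688 and ILMN_2959976. For ILMN_1217728 the day 0 signals were 84.5, 82.1, 66.1, 123.9 and 67.9. On day 3 they were 428.6, 409.7, 293.3, 206.9 and 213.9, and on day 6 394.4, 502.4, 716.1, 236.3 and 287.0. No later array came down to a day 0 array, and the level rose from 5.44 ± 0.40 to 8.11 ± 0.54 and 8.55 ± 0.36 (SD, n = 5, log2). The rise was 2.66 ± 0.25 (SE, 6.33-fold) by day 3 and 3.11 ± 0.25 (8.63-fold) by day 6 (limma, adjusted p = 2.62e-07 and 3.47e-08). In the pulldowns it was detected on 2 arrays, the IgG arrays of days 4 and 6 of experiment 4, at 80.1 and 62.4. On the 4 AUF1 arrays of day 6 it read 76.8, 59, 57.8 and 58.8 without detection, and on those of day 0 57.4, 51.1, 52.9 and 58.6.

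ILMN_2711688 had input signals of 74.4, 79.2, 81.9, 98.7 and 59.3 on day 0. They were 273.3, 305.0, 271.7, 173.6 and 137.9 on day 3, and 360.0, 410.8, 484.1, 302.4 and 261.5 on day 6. The groups of day 0 and day 6 did not overlap and neither did those of day 0 and day 3. The rise was 2.36 ± 0.22 (SE, log2) by day 3 and 3.13 ± 0.22 (8.78-fold) by day 6 (limma, adjusted p = 2.04e-07 and 6.02e-09), and the further change from day 3 to day 6 of 0.77 did not pass (adjusted p = 0.19). It was detected on 3 pulldown arrays, all of experiment 4: AUF1 on day 6 at 68.1, IgG on day 0 at 77.7 and IgG on day 6 at 64.3.

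ILMN_2959976 rose from signals of 94.7, 88.2, 136.4, 143.5 and 105.9 on day 0 to 375.8, 356.8, 479.4, 303.8 and 284.4 on day 3. On day 6 it read 345.8, 374.8, 716.3, 270.1 and 277.2. The change was 2.27 ± 0.20 (SE, log2) by day 3 and 2.31 ± 0.20 by day 6 (limma, adjusted p = 1.3e-07 and 8.34e-08), so that nearly all of it was present on day 3. It was detected on 7 pulldown arrays, of which 5 were IgG and 2 AUF1, with signals up to 104.6. ILMN_2590219 rose by 1.82 ± 0.19 by day 3 and 1.55 ± 0.19 by day 6, and ILMN_2941058 by 1.54 ± 0.17 and 1.86 ± 0.17. ILMN_3162536 rose by 1.07 ± 0.17 and 1.83 ± 0.17. These 6 rises passed the test on both days under each of the 20 alternatives run for them.

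By day 6 the largest falls were in ILMN_2697431, ILMN_1245789 and ILMN_2957614. ILMN_2697431 had day 0 signals of 229.4, 256.2, 181.7, 355.8 and 116.4. It read 62.5, 63.5, 90.1, 110.4 and 70.2 on day 3 and 72.0, 75.4, 85.4, 68.2 and 64.6 on day 6. Every day 0 array was above every later array, and the level went from 7.37 ± 0.45 to 5.37 ± 0.65 and 5.16 ± 0.08 (SD, n = 5, log2). The level fell to 0.249 of that of day 0 by day 3 and to 0.216 by day 6, a change of -2.21 ± 0.26 (SE, log2) by day 6 (limma, adjusted p = 9.85e-06 and 2.55e-06). It was detected on 4 pulldown arrays, all IgG: both day 0 arrays of experiments 1 and 4, at 91.9 and 106.8, and both day 6 arrays of these experiments, at 97.5 and 71.6. On day 6, before any normalization, the pulldown signal of 97.5 was above every input signal of that day. The other, 71.6, lay inside their range.

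ILMN_1245789 fell from 205.8, 358.0, 151.5, 479.5 and 107.9 on day 0 to 75.7, 64.8, 81.8, 84.0 and 79.3 on day 3. On day 6 it read 76.7, 80.7, 95.1, 75.3 and 67.3. The day 0 arrays spread widely and the later ones less, with SDs of 0.80, 0.31 and 0.13 (log2). The change was -2.05 ± 0.28 (SE) on each later day (limma, adjusted p = 1.67e-05 and 1.37e-05). It was detected on 3 pulldown arrays, all of day 0. These were the AUF1 array of experiment 4 at 69.1 and the IgG arrays of experiments 3 and 4 at 69.8 and 75.9.

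ILMN_2957614 was among the brightest members on day 0, with 640.2, 953.0, 577.4, 1644.5 and 301.2. On day 3 it read 338.8, 270.7, 323.5, 276.9 and 141.8, and on day 6 283.3, 277.3, 265.9, 209.5 and 130.7. Array 45, at 301.2, was the day 0 array that lay inside the range of day 3. The change was -1.42 ± 0.29 (SE, log2) by day 3 and -1.68 ± 0.29 by day 6 (limma, adjusted p = 0.000831 and 0.000144). Its 7 pulldown detections were on 6 IgG arrays and 1 AUF1 array, with the highest signals, 122.4 and 167.0, on the IgG day 0 arrays of experiments 1 and 4. ILMN_2606804 fell by 1.49 on the log2 scale by day 3 (SE 0.42), ILMN_2926729 fell by 1.45 (SE 0.27) and ILMN_2633697 fell by 1.45 (SE 0.28). By day 6 ILMN_3042112 fell by 1.56 (SE 0.16). These 7 falls passed under each of 20 alternatives on both days, except that of ILMN_2606804 by day 6, which was lost in 1 of 20 (adjusted p = 0.0709).

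ILMN_2725402 was the 1 member that passed the test between day 3 and day 6. Its input signals were 91.4, 104.8, 88, 122.5 and 82.7 on day 0 and 85.1, 92.0, 189.2, 118.8 and 92.1 on day 3. On day 6 they were 194.3, 228.1, 260.3, 171.1 and 141.7. Day 0 and day 3 overlapped, and day 3 reached the day 6 range on 1 array, at 189.2. The change from day 3 to day 6 was 1.12 ± 0.23 (SE, log2, limma, adjusted p = 0.0425). The call was lost in 12 of 20 alternatives, with an adjusted p of up to 0.181. With arrays blocked in the triplets 33 to 35, 36 to 38 and so on, whose day 3 and day 6 arrays deviated together, it was kept (limma, adjusted p = 0.0443).

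The course in input was set beside where members appeared in pulldowns. Of the 43 members that fell by day 6, IgG arrays of day 0 detected 40.1% and those of day 6 25% (means over arrays), while AUF1 arrays gave 11% and 15.7%. Of the 97 that rose, IgG arrays of day 0 detected 21.1% and of day 6 19.1%, and AUF1 arrays 4.64% and 14.7%. Of the 233 others, these were 26.5% and 18% with IgG and 6.01% and 10.3% with AUF1. Single arrays of a day ran wide, from 4.65% to 90.7% for the fallers on IgG day 0 arrays and from 0 to 40.2% for the risers on AUF1 day 6 arrays. The ranges of day 0 and day 6 arrays overlapped in each of these cases. Members never seen in a pulldown were the dimmest, with a median input level of 5.66 against 6.1 to 6.12 in the other classes. Among these 38, 12 rose (31.6%) and 1 fell (2.63%) by day 6, beside 19.5% and 23% of all probes. Of the 155 seen on 1 to 3 arrays, 43 rose (27.7%) and 13 fell (8.39%). Of the 97 seen on 4 or 5 arrays these were 21 (21.6%) and 13 (13.4%), and of the 83 seen on 6 or 7 arrays 21 (25.3%) and 16 (19.3%).

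AUF1 and IgG pulldown could be compared for 236 of the 373 members, those detected on at least 3 pulldown arrays. The rule kept each of them to at most 7 detections and so near background with both antibodies, and nothing is read from the counts that follow. Over the mean of the 4 days, 4 of the 236 passed (1.69%, limma, adjusted p under 0.05), against 21.1% of all 13812 probes tested. They were 2 higher and 2 lower with AUF1 (0.847% each), against 9.33% and 11.8% of all, with 23 at an unadjusted p under 0.05. With a replicate block for the experiment 12 passed, and with each AUF1 array set against the IgG array of its own day and number 29 passed (10 higher, 19 lower). Leaving out single arrays moved the count between 2 and 14, the highest without the IgG day 4 array 13, which detected 25.6% of all probes. Without the IgG arrays 23 (day 6) and 9 (day 0) it was 8 and 7.

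Each of the 4 members was detected with only 1 of the antibodies, so the level with the other has only an upper bound. They reached the 3 detections needed for the test through that 1 antibody alone. Their differences are therefore given as a description, and nothing is read from them. ILMN_2727687 was detected on 5 AUF1 arrays and on 0 IgG arrays, with signals of 56.0 to 74.2 on AUF1 and 55.7 to 86.2 on IgG arrays. The signals overlapped, and the detected AUF1 arrays included the 3 of day 4, at 70.0, 63.3 and 56.0. Its measured means were 5.00 with AUF1 and 4.55 with IgG (log2). The AUF1 mean includes arrays that did not detect it and is no lower bound, so no fold is given. ILMN_1241390, detected on 4 AUF1 arrays and 0 IgG arrays, had means of 5.10 and 4.67, and no fold is given for the same reason. Its call was lost in 21 of the 35 alternatives that tested it (limma, adjusted p up to 0.219), and that of ILMN_2727687 in 0 of 37. In the remaining alternatives under 3 arrays detected ILMN_1241390, so it was not tested.

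ILMN_1230087 and ILMN_2605679 were each detected on 7 IgG arrays and 0 AUF1 arrays. The call of ILMN_2605679 was lost in 24 of 37 alternatives (limma, adjusted p up to 0.237), and that of ILMN_1230087 in 0 of 37. ILMN_1230087 read 47.9 to 71.7 on AUF1 arrays and 50.1 to 98.8 on IgG arrays. On IgG day 4 arrays it read 82.6, 58.0, 74.2 and 65.7, and on AUF1 day 4 arrays 55.3, 52.4 and 47.9. With the dimmest detected probe of each AUF1 array in place of a lower value, the AUF1 mean was 5.24 (log2) for each. That was above their IgG means of 4.79 and 4.71, so no fold is given for either.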

How the data were processed

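Per the file headers, the deposited values are, for every probe and array, an intensity without normalization and a detection p-value, over 25697 probes and 44 arrays. GenomeStudio 1.6.0 is named in the submitters' processing notes. A subtraction of background is not stated; no signal was under 32.4, so background was corrected here. The columns name a group, an experiment and an array, and each column was assigned to its group. There were 0 pairs of identical columns.

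Using limma 3.58.1 (R 4.3.3), background was modelled as normal-exponential using the detection p-values for the negative controls (neqc, offset 16). Quantile normalization and log2 followed, apart for the 15 input and the 29 pulldown arrays, and for all 44 jointly for description only. Arrays normalized in this way share 1 distribution, which makes levels relative to the other probes. A probe was tested if at least 3 arrays of its fit detected it (13750 probes in input, 13812 in pulldown). Each fit took a mean per group, contrasts and eBayes, with Benjamini-Hochberg adjustment over all tested probes and calls at adjusted p under 0.05. Changes are the later day minus the earlier, and AUF1 minus IgG over the mean of 4 days. The fits were run on simulated data with independent noise on each array. Those data lack the correlation seen between arrays here, so they do not check the p-values under it. Alternatives were other scaling, background, offset and filter settings, array weights, replicate blocks, and leaving out arrays. The number of arrays limits the precision.

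Probes were named by rule: the 8 members highest in input, the 5 highest never detected in a pulldown, up to 5 with the largest rise and 5 with the largest fall by day 3 and by day 6 with the same sign on every later array, up to 3 each for day 6 against day 3 and for AUF1 against IgG, and 2 on each side of the threshold. The members and lists were chosen with earlier results of these data known. The identifiers occur 0 times in the gene table at hand, so the gene lists and cell type markers were not analysed here. Same-numbered AUF1 and IgG arrays deviated together, with correlations of at least 0.26 (day 0), 0.11 (day 2) and 0.16 (day 6). On day 4 they ran from -0.094 to 0.72. Differently numbered arrays correlated at up to 0.3 (day 0), 0.13 (day 2), 0.47 (day 4) and 0.34 (day 6), so the ranges overlapped. The numbers were taken as pairs on days 0, 2 and 6 and not on day 4, so the planned fit without the block was kept for the mean of 4 days and the fits with it are given beside it.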

Additional observations from a re-analysis of the deposited data

Results flagged for a closer look

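Among the named probes and the counts of members, 101 groups of 4 or 5 arrays were checked for an array far from the others, and 7 were found. The cut-off is meant to flag 1 in 20 groups of independent values. These groups share arrays, and on input arrays the rule fixes the count of members, so it cannot stand out there. A chance rate was not computed, and nothing is read from the number found. On day 0, ILMN_2629591 read 6.44 (log2) on array 45 against 7.43 to 7.73 on the other 4, and ILMN_1238119 read 6.93 on array 39 against 7.95 to 8.28. On day 3, ILMN_2957614 read 6.98 on array 46 against 7.99 to 8.19, and ILMN_3145527 read 7.47 on array 43 against 7.99 to 8.19. On day 6, ILMN_2959976 read 8.97 on array 41 against 8.26 to 8.39, ILMN_2941058 read 7.21 on array 35 against 7.73 to 7.81, and ILMN_2926729 read 4.78 on array 41 against 5.47 to 5.62. Arrays 45 and 46 are both of experiment 4.

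The change of ILMN_2725402 by day 6 was larger than its change by day 3, by 1.12 on the log2 scale. That difference is the comparison of day 6 with day 3 (limma, adjusted p = 0.0425).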

How the results depend on the processing

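Under median scaling, 72 members (37 up, 35 down) were called on day 3 and 85 (50 up, 35 down) on day 6. The other 9 settings gave up to 136 and 192, both with array weights. Leaving out 1 input array gave 90 to 116 and 122 to 152, and the most falls, 58 and 61, without day 0 array 45. Day 6 against day 3 gave 2 with experiments as a replicate block, with all 44 arrays normalized together and with array weights, 0 with median scaling, without the filter and with only the 2 groups fitted, and 0 to 3 without single arrays (3 without array 40). AUF1 against IgG gave 12 with the replicate block, 12 with median scaling, 11 without the filter and 30 with array weights. Added after seeing the data, as were the block by array triplet, the averaging of arrays of 1 day and experiment and the shares by input level without array 45, AUF1 against IgG gave 29 with the block within day and 2 without experiment 4. Leaving out single arrays gave 2 to 14. Median scaling moved the median of all probes in that comparison to -0.56 (log2), from -0.02. The cause of these changes was not tested. In input the replicate block by experiment number or by array triplet moved the day 3 and day 6 counts by under 1.5 times. Input arrays of 1 number correlated at -0.072 to 0.14 (days 0 and 3), -0.14 to 0.21 (days 0 and 6) and -0.32 to 0.51 (days 3 and 6), and were not taken as pairs. In array triplets all 5 pairs of days 3 and 6 correlated at 0.36 to 0.51, other pairs at up to 0.48, and this replicate block gave 1 member for day 6 against day 3, as without it. The rule named 193 probes at 26 of 29 arrays undetected, 38 at 29 of 29, and 248 with AUF1 and IgG arrays judged each alone. It named 431 at a detection p of 0.01, of which 233 are members here, 292 without the 5 arrays that detect under 30%, and 373 to 428 without single arrays, the most without array 45. No named change turned its sign, but by day 3 falls outnumbered rises with array weights (71 against 65) and equalled them without array 45 (58 each). Without single arrays the members' median change from day 3 to day 6 went as low as -0.01. Signals close to background limit these results, as the members' median on pulldown arrays was 48.7 to 87.8.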
